A study of Gallus gallus with 8 samples.

Results

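Amacrine cells are the inhibitory interneurons of the inner retina, and 7 transcription factors linked to them were examined with the calcium-binding protein calretinin. The 8 listed genes were PAX6, TFAP2A, TFAP2B, NEUROD2, NEUROD6, MAF, PTF1A and CALB2, the gene of calretinin. Members were all probe sets whose gene symbol in the annotation of the Affymetrix GeneChip Chicken Genome array was 1 of these 8. The rule gave 6 genes with 8 probe sets, out of 13009 genes with a single symbol and 38439 probe sets tested, with 2 each for CALB2 and MAF and 1 each for PAX6, TFAP2A, TFAP2B and NEUROD6. NEUROD2 and PTF1A had 0 probe sets under their symbol or gene identifier and were not analysed here. In the RefSeq annotation of the assembly GRCg7b, TFAP2A and NEUROD6 lie on chromosome 2, TFAP2B on chromosome 3, PAX6 on chromosome 5 and CALB2 and MAF on chromosome 11, so none of them is linked to the sex chromosomes Z and W.

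Retinal RNA came from White Leghorn chicks aged 9 days. The 4 plus lens chicks had +6.9 D lenses on both eyes during 24 h, which puts the focal plane in front of the retina (myopic defocus), and the 4 control chicks wore none. Each chick gave 1 array, with its 2 retinas pooled, and all 8 chicks carry the label male. The array measures the whole retina, so that fewer amacrine cells and less mRNA per cell cannot be told apart. Values are log2 of the intensity of a probe set, as normalized with GC-RMA by the authors, and a difference is plus lens minus control. Probe sets bind with different strength, and levels were compared between chicks and not between genes.

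The 4 plus lens arrays were washed on fluidics station 2 and scanned first, and the 4 control arrays were washed on station 1 and scanned after them, so station, scan order and treatment cannot be told apart. HINTW, a gene of the female-specific W chromosome, gave a mean log2 intensity of 9.78 to 10.24 in 6 arrays, against their label, and of 3.90 and 3.10 in control replicates 2 and 4. Differences are therefore also given from a fit with presence of this signal as a second term, here called W-adjusted. Since only control chicks lacked the signal, a W-adjusted difference compares the 4 plus lens chicks with control replicates 1 and 3 alone. The signal of beta-actin at its 3′ probe set exceeded that at its 5′ probe set, a measure of RNA and labelling quality, by 1.92 ± 0.12 in plus lens and 1.72 ± 0.045 in control arrays (log2, n = 4 each, SD, two-sided p = 0.0571 by exact permutation). Its part in the results was not tested.

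PAX6 is a paired-box and homeobox factor needed for eye formation, and in the mature retina it stays on in amacrine, ganglion and horizontal cells. TFAP2A and TFAP2B belong to the AP-2 family and in the mouse retina mark amacrine and horizontal cells. NEUROD2 and NEUROD6 are basic helix-loop-helix factors that mark amacrine subtypes in the mouse, and PTF1A, of the same class, directs progenitors of the mouse retina to the amacrine and horizontal fates. MAF is a leucine zipper factor known above all from lens fibre cells, and calretinin binds calcium through EF-hands and labels many amacrine cells and some ganglion and horizontal cells.

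Calretinin, PAX6 and TFAP2B gave high signals in every retina, TFAP2A and NEUROD6 gave lower signals that stayed over an intensity of 16 in every retina, and MAF stayed under 16 in all 8. None of these genes was called higher or lower in plus lens chicks. The intensity of 16 was used as a mark for dim probe sets, since 53.4% to 53.8% of the probe sets of an array lay below it. Of the 8 member probe sets, 6, belonging to 5 genes, passed this mark on every array, as did 44.2% of all probe sets. Limma called 0 of the 8 at 1.5-fold or more and an adjusted p under 0.06, where it called 0% of all probe sets. The methods' t-test, held to these thresholds, also called 0 of all 38439 probe sets. The paper did report a list of changed genes from its GC-RMA values, with the cone gene GNAT2 in it. That list was not reproduced at these thresholds, and the reason was not tested. For its list the paper also named a p under 0.05. How it joined this to the false discovery rate cannot be told here, so the thresholds may be unlike. At an unadjusted p under 0.05 without a fold threshold, limma listed 0 of the 8 members, against 4.53% of all probe sets. The methods' t-test also listed 0 of the 8, against 1395 of all 38439 probe sets. The chicks of both groups overlapped at all 8, and 2.86% of all probe sets had no overlap. At shares this low, 0 of 8 says little about the members, for the unadjusted p and for the overlap.

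**Figure D1:**
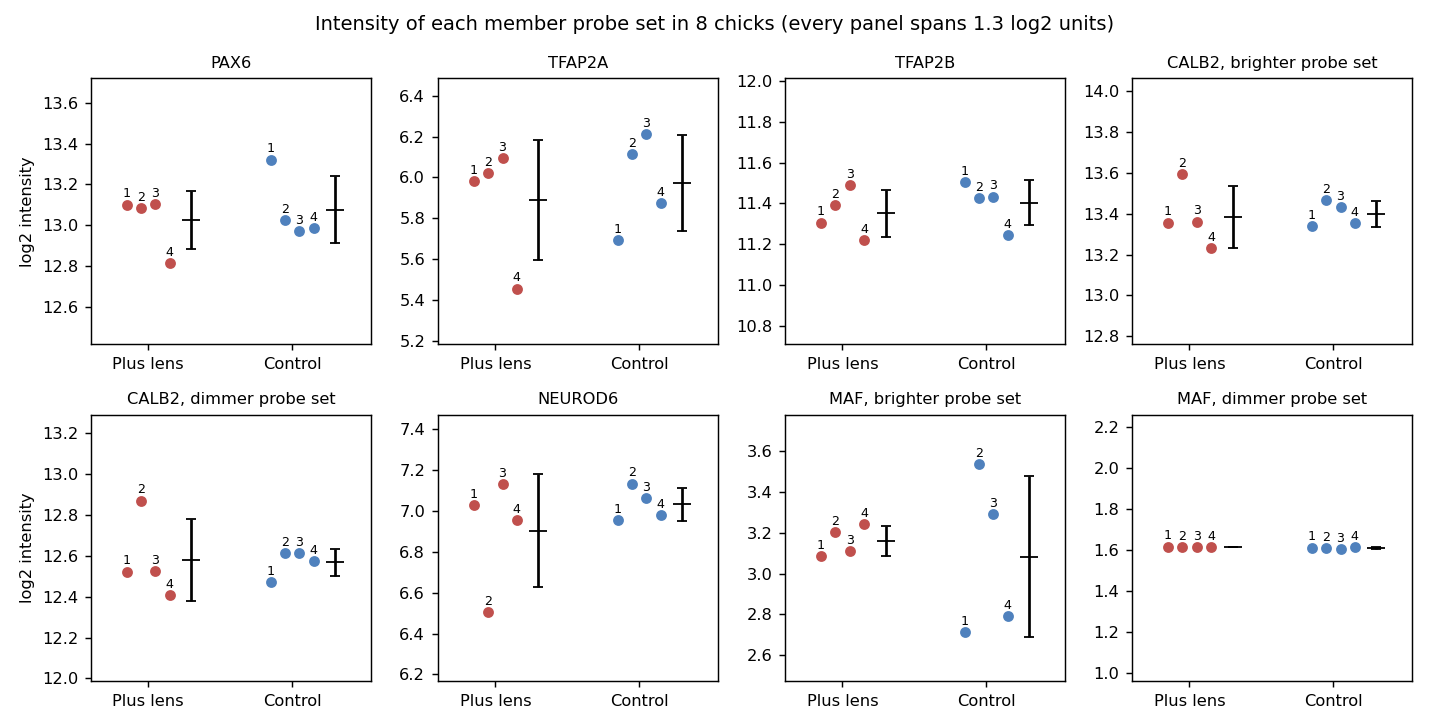
Log2 intensity of the 8 member probe sets in each chick, plus lens left and control right, with the replicate number above each point and the mean ± SD of 4 chicks beside the points. The groups overlap in every panel, plus lens replicate 4 is the lowest of 8 chicks for PAX6, TFAP2A, TFAP2B and both probe sets of CALB2, and MAF lies between 1.60 and 3.53.

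PAX6 differed more among chicks of a group than between the groups. The log2 intensity of PAX6 was 13.10, 13.09, 13.10 and 12.82 in plus lens replicates 1 to 4, and 13.32, 13.03, 12.97 and 12.99 in control replicates 1 to 4. One chick stood apart in each group, plus lens replicate 4 on the low side and control replicate 1 on the high side, while the other 6 lay between 12.97 and 13.10. Mean levels were 13.03 ± 0.14 in plus lens and 13.08 ± 0.165 in control chicks (SD, n = 4 each), corresponding to intensities of 8342 and 8639. The difference was −0.051 (SE 0.10, 95% interval −0.30 to 0.19, adjusted p = 0.996 from limma), and an exact two-sided permutation test gave p = 0.686. It was 0.020 without plus lens replicate 4 and 0.031 without control replicate 1, so that its sign rested on single chicks. The W-adjusted difference was −0.12 (SE 0.13).

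Of the AP-2 factors, TFAP2B varied less among chicks in log2 intensity than TFAP2A, whose probe set was much dimmer. The spread was not adjusted for intensity. TFAP2B had log2 intensities of 11.31, 11.39, 11.49 and 11.22 in plus lens chicks and of 11.50, 11.43, 11.43 and 11.25 in control chicks. Its mean was 11.35 ± 0.12 in plus lens and 11.40 ± 0.11 in control chicks (SD, n = 4 each), with a difference of −0.052 (SE 0.076, 95% interval −0.23 to 0.13, adjusted p = 0.994 from limma). The ranges of the groups nearly coincided, and the W-adjusted difference was −0.12 (SE 0.088). An exact two-sided permutation test of TFAP2B gave p = 0.571.

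TFAP2A had log2 intensities of 5.98, 6.02, 6.09 and 5.46 in plus lens chicks and of 5.69, 6.11, 6.21 and 5.87 in control chicks, or 43.9 to 74.2 as intensities. Plus lens replicate 4 was again the lowest chick, and the other 3 plus lens chicks lay within the control range. The means were 5.89 ± 0.29 in plus lens and 5.97 ± 0.23 in control chicks (SD, n = 4 each). The difference of −0.085 (SE 0.18, 95% interval −0.51 to 0.34, adjusted p = 0.996 from limma) was 0.060 without plus lens replicate 4 and −0.0050 without control replicate 3. The exact two-sided permutation test gave p = 0.657, and the W-adjusted difference was −0.064 (SE 0.235). The ends of the interval correspond to ratios of 0.703 and 1.26, and differences within this range remain compatible with the values of 4 chicks per group.

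NEUROD6 lay between 6.95 and 7.13 in 7 chicks and was lower in 1. It had log2 intensities of 7.03, 6.50, 7.13 and 6.95 in plus lens chicks and of 6.95, 7.13, 7.06 and 6.98 in control chicks. Plus lens replicate 2 was the low one, and it decided the sign of the difference, which was −0.13 (SE 0.14, 95% interval −0.45 to 0.20, adjusted p = 0.979 from limma) with it and 0.0052 without it. The means were 6.90 ± 0.28 in plus lens and 7.03 ± 0.08 in control chicks (n = 4 each, SD, two-sided p = 0.486 by exact permutation). The W-adjusted difference was −0.10 (SE 0.18).

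MAF, measured by 2 probe sets, gave no signal over the mark of 16 in any retina, so its level has no order between chicks. The brighter MAF probe set had log2 intensities of 3.09, 3.20, 3.11 and 3.24 in plus lens chicks and of 2.72, 3.53, 3.29 and 2.79 in control chicks, or 6.57 to 11.6 as intensities. The dimmer MAF probe set read 1.61 to 1.62 in plus lens and 1.60 to 1.61 in control chicks, close to the lowest log2 value of any probe set on any array (1.23). Values this low say little of the mRNA, and the differences of 0.077 (SE 0.19) and 0.0047 (SE 0.0060) had adjusted p-values of 0.996 and 0.988 from limma. W-adjusted, the differences were 0.157 (SE 0.246) at the brighter and 0.0070 (SE 0.0072) at the dimmer probe set of MAF. Of the lens markers, whose tissue is known for MAF, 6 of the 7 measured lay under 16 in all 8 arrays, among them CRYAA, an alpha-crystallin, at a mean log2 intensity of 2.70 in both groups. The exception was CRYBA4, another crystallin, which lay over 16 in every array, at 8.54 in plus lens and 8.48 in control chicks.

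Calretinin was the member with 2 bright probe sets, and both placed the chicks in nearly the same order. The brighter CALB2 probe set had log2 intensities of 13.36, 13.59, 13.36 and 13.23 in plus lens chicks and of 13.34, 13.47, 13.43 and 13.36 in control chicks. The dimmer CALB2 probe set had 12.52, 12.87, 12.53 and 12.41 in plus lens chicks and 12.47, 12.61, 12.61 and 12.57 in control chicks. At both, plus lens replicate 2 was the highest and plus lens replicate 4 the lowest of the 8, and the 4 control chicks lay between these 2. The spread among plus lens chicks was accordingly wider, with an SD of 0.15 against 0.062 in control chicks at the brighter and of 0.20 against 0.067 at the dimmer probe set (n = 4 each), a difference in spread that was not tested.

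The mean level of calretinin was close in both groups. It was 13.39 in plus lens and 13.40 in control chicks at the brighter probe set, a difference of −0.014 (SE 0.077, 95% interval −0.20 to 0.17), and 12.58 in plus lens and 12.57 in control chicks at the dimmer one, a difference of 0.013 (SE 0.10, 95% interval −0.23 to 0.25). The adjusted p was 0.998 at both from limma, and exact two-sided permutation tests gave p = 0.971 and p = 0.943. Without plus lens replicate 2 both differences were −0.083, and W-adjusted they were −0.00054 (SE 0.10) and 0.038 (SE 0.13). Over the 8 chicks the CALB2 probe sets correlated with r = 0.96 and rho = 0.905 (exact permutation tests, p = 0.000273 and p = 0.00456), and with r = 0.86 without plus lens replicates 2 and 4. Both read the same RNA sample, so this describes how repeatable the reading was and not 2 independent measurements.

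**Figure D2:**
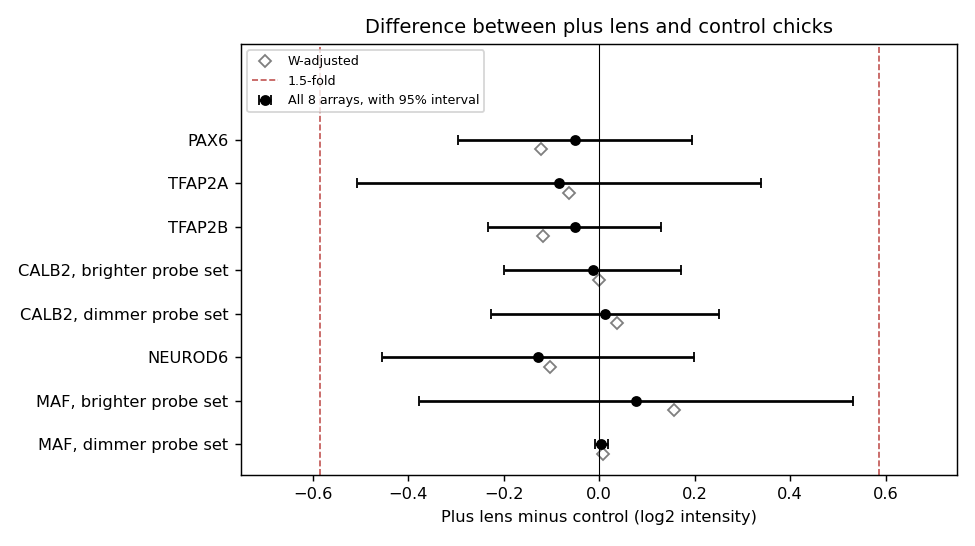
Difference between plus lens and control chicks in log2 intensity for the 8 member probe sets, with 95% intervals from limma (filled circles) and the W-adjusted value (open diamonds). All intervals include 0 and lie inside the dashed lines at 1.5-fold, the widest among the bright probe sets being that of TFAP2A, from −0.51 to 0.34.

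These intervals bound the size of a difference that the arrays allow in the fit without W-adjustment. W-adjusted standard errors were larger, 0.235 against 0.177 for TFAP2A and 0.246 against 0.19 for the brighter probe set of MAF. Intervals of the W-adjusted fit are not given here, so the bound does not cover that fit. At all 8 member probe sets the 95% interval lay within 1.5-fold in both directions, as it did at 84.2% of all probe sets. For the 2 probe sets of MAF, both under 16 in all arrays, this says little of the mRNA. Among probe sets over 16 in every array it lay within 1.5-fold at 6 of 6 for the members and at 76.2% of all. As a ratio of plus lens to control, the interval ran from 0.814 to 1.14 for PAX6, from 0.851 to 1.09 for TFAP2B, from 0.871 to 1.13 for the brighter probe set of CALB2 and from 0.730 to 1.15 for NEUROD6. With 1 probe set per gene, 5 of the 6 member genes had a negative difference and MAF a positive one, with a median of −0.051, and the median over all probe sets was 0.0016.

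Several members were lowest in the same chick. Plus lens replicate 4 was the lowest of the 8 arrays at 5 of the 6 bright member probe sets, those of PAX6, TFAP2A, TFAP2B and CALB2, and NEUROD6 was the exception. The same array was the lowest at 11.5% of the 16978 probe sets over 16 in every array, and at 2 of 25 bright probe sets of other amacrine transcription factors and transmitter genes. It read below the mean of the 8 arrays by 0.48 at TFAP2A, 0.24 at PAX6, 0.16 at TFAP2B and by 0.16 and 0.17 at the CALB2 probe sets. Among those 25 other amacrine probe sets, control replicate 1 was the lowest array at 10. The count of 5 was noticed after the values were seen and is a description.

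**Figure D3:**
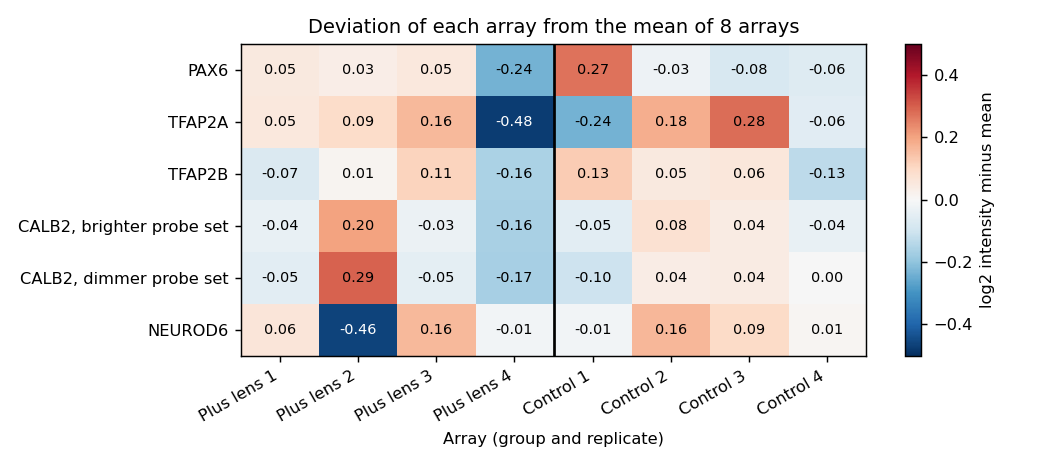
Deviation of each array from the mean of the 8 arrays (log2 intensity) for the 6 member probe sets over 16 in every array, with plus lens replicates left of the line and control replicates right of it. The column of plus lens replicate 4 is below 0 throughout, from −0.48 at TFAP2A to −0.01 at NEUROD6, and plus lens replicate 2 is high at CALB2 (0.20 and 0.29) and low at NEUROD6 (−0.46).

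The spread of the members within a group was ordinary for bright probe sets. The pooled SD within groups was 0.11 for TFAP2B, 0.115 and 0.149 for CALB2, 0.153 for PAX6, 0.204 for NEUROD6 and 0.265 for TFAP2A, against a median of 0.168 over bright probe sets. TFAP2B had a wider spread than 25.3% of bright probe sets, PAX6 than 44.0%, NEUROD6 than 62.4% and TFAP2A than 77.4%.

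Pairs of members were compared across the 8 chicks with 1 bright probe set per gene, which gave 10 pairs. Pearson's r ran from −0.54 (CALB2 with NEUROD6) to 0.71 (PAX6 with TFAP2B), 8 of the 10 were positive, and 0 passed an adjusted p of 0.05 (exact permutation tests with Benjamini-Hochberg adjustment over 10 pairs, lowest adjusted p = 0.31 for r and 0.154 for rho). PAX6 and TFAP2B had r = 0.71 and rho = 0.67 (exact permutation p = 0.0377 and 0.0831, adjusted 0.31 and 0.277), and r = 0.21 without control replicate 1 and plus lens replicate 4. In each pair the 2 chicks left out were those farthest from the median of the first gene. This narrows its range, so a fall in r cannot tell whether a relation rested on them. TFAP2A and CALB2 had r = 0.69 and rho = 0.83 (exact permutation p = 0.0621 and 0.0154, adjusted 0.31 and 0.154), and r = 0.24 without the same 2 chicks. After the group means were removed, r was 0.69 for both pairs. For CALB2 and NEUROD6 the r of −0.54 went with a rho of 0.31 (exact permutation p = 0.19 and 0.462, adjusted 0.527 and 0.766). Their r was 0.65 without plus lens replicates 2 and 4, so its sign rested on these 2 chicks. For TFAP2A and TFAP2B r was 0.50, and 0.85 without plus lens replicate 4 and control replicate 1.

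The genes whose pattern over the 8 arrays was most like that of a member were looked for among 13855 other bright probe sets with a single symbol. PAX6 was followed most closely by NMNAT2 (r = 0.98), an enzyme of NAD synthesis in axons, and COMMD9 (r = 0.96). TFAP2A was followed by the chemokine CXCL12 (r = 0.955) and the neutral amino acid transporter SLC1A4 (r = 0.95), and TFAP2B by SEPTIN11 (r = 0.97) and the annexin ANXA11 (r = 0.94). CALB2 was followed by PDCD10 (r = 0.98) and CTNNBIP1 (r = 0.96), an inhibitor of beta-catenin, and NEUROD6 by IMP4 (r = 0.97), a factor of rRNA processing, and ARHGAP26 (r = 0.965). These values were the highest among so many candidates over 8 arrays and are a description with no test.

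Among other amacrine genes, those of transmitter use held the smallest p-values, and none was called. GAD1 and GAD2 make GABA, and SLC6A9 takes up glycine. SLC6A9 had log2 intensities of 10.93, 11.04, 10.95 and 10.94 in plus lens chicks and of 11.06, 11.22, 11.16 and 11.17 in control chicks, a difference of −0.19 (SE 0.039). GAD1 had 13.41, 13.36, 13.44 and 13.40 in plus lens chicks and 13.25, 13.31, 13.35 and 13.31 in control chicks, a difference of 0.096 (SE 0.025). At both genes the groups did not overlap (two-sided p = 0.0286 by exact permutation, the lowest possible for 4 against 4), and the adjusted p was 0.859 for SLC6A9 and 0.964 for GAD1 from limma. Their W-adjusted differences were −0.145 and 0.099. GAD2 went the other way from GAD1, with 10.83 ± 0.083 in plus lens and 11.06 ± 0.112 in control chicks (SD, n = 4 each), a difference of −0.23 (SE 0.066, adjusted p = 0.964 from limma), of −0.37 at its other probe set and of −0.20 when W-adjusted. Of the 11 measured of 12 transmitter genes, 6 had a positive and 5 a negative difference, with a median of 0.0555 that was −0.078 when W-adjusted. The count holds TH, which was dim, with means of 3.77 in plus lens and 3.93 in control chicks. It also holds CHAT, at 1.65 and W-adjusted 1.24, which lay under 16 in control replicate 2 (3.38). At the other probe sets of CHAT the difference ran from 0.00049 to 0.98. In each direction 2 of the 11 genes had an unadjusted p under 0.05, against 4.53% of all probe sets. SLC6A9 and GAD1 were named for having the smallest p of the list, so their separation follows from the choice.

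Other transcription factors of amacrine cells lay on both sides, 9 of 18 measured with a positive difference and 9 with a negative one, with a median difference of −0.017. W-adjusted, the median was 0.028. Unlike the members, ISL1, RORB, TCF4, NFIB and MEF2C of this list lie on chromosome Z. Their differences were −0.36, 0.115, −0.54, −0.054 and −0.035, and W-adjusted −0.045, 0.33, −0.045, 0.41 and 0.23. LHX9, a LIM homeobox factor, averaged 8.41 ± 0.14 in plus lens and 8.06 ± 0.235 in control chicks (SD, n = 4 each), a difference of 0.35 (SE 0.13, adjusted p = 0.979 from limma). The groups touched at LHX9, where plus lens replicate 3 (8.23) lay below control replicate 3 (8.36). BHLHE22, a basic helix-loop-helix factor of amacrine and bipolar cells in the mouse, had 11.79, 11.82, 12.48 and 12.43 in plus lens chicks and 11.91, 11.80, 11.72 and 11.72 in control chicks, so that 2 plus lens chicks were high and the other 2 lay at the control level. The difference of BHLHE22 was 0.34 (SE 0.18, adjusted p = 0.979 from limma) at this probe set and 0.00082 at its other one. The level of that other probe set is not given here, so disagreement cannot be told from a lack of signal. At the other 4 probe sets of LHX9 the difference ran from 0.0655 to 0.22. LHX9 alone of the 18 had an unadjusted p under 0.05 (0.032 from limma, 0.105 when W-adjusted), against 4.53% of all probe sets. The W-adjusted differences were 0.33 for LHX9 and 0.32 for BHLHE22.

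Calcium-binding proteins other than calretinin had a negative difference in 7 of 10 measured genes, with a median of −0.046 that was −0.077 when W-adjusted. NCS1 alone of the 10 had an unadjusted p under 0.05, against 4.53% of all probe sets. NCS1, a neuronal calcium sensor, averaged 9.19 ± 0.15 in plus lens and 9.49 ± 0.19 in control chicks (SD, n = 4 each), a difference of −0.30 (SE 0.115, adjusted p = 0.979 from limma). PVALB, or parvalbumin, had a difference of −0.075 (SE 0.077, adjusted p = 0.979 from limma), and one of −0.17 at its second probe set. The W-adjusted differences were −0.39 for NCS1 and −0.135 for PVALB.

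Paralogues of the members were often dim, 8 of 17 measured genes lying under 16 in all arrays and 6 over 16 in all. MAFF, a small MAF factor without a transactivation domain, had log2 intensities of 7.56, 7.70, 7.70 and 7.64 in plus lens chicks and of 8.02, 8.35, 8.02 and 8.09 in control chicks. Its groups did not overlap, with a difference of −0.47 (SE 0.082, adjusted p = 0.651 from limma) that was −0.37 when W-adjusted. TFAP2E, a further AP-2 factor, averaged 3.04 ± 0.11 in plus lens and 3.93 ± 0.47 in control chicks (SD, n = 4 each), under 16 in every chick other than control replicate 3, so its difference of −0.88 (SE 0.23, adjusted p = 0.964 from limma) is set against background. MAFK, a second small MAF factor, which was added after its value was seen, had a difference of −0.335 (SE 0.10, adjusted p = 0.979 from limma). The W-adjusted differences were −1.20 for TFAP2E and −0.45 for MAFK. MAFF, TFAP2E and MAFK, 3 of 17 measured, were the paralogues with an unadjusted p under 0.05, against 4.53% of all probe sets. MAFF and TFAP2E were named for having the smallest p-values of the list, so the separation at MAFF follows from the choice. The list had a negative difference in 11 of 17 with a median of −0.0092, which was 0.0050 when W-adjusted, and 0 were called.

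**Figure D4:**
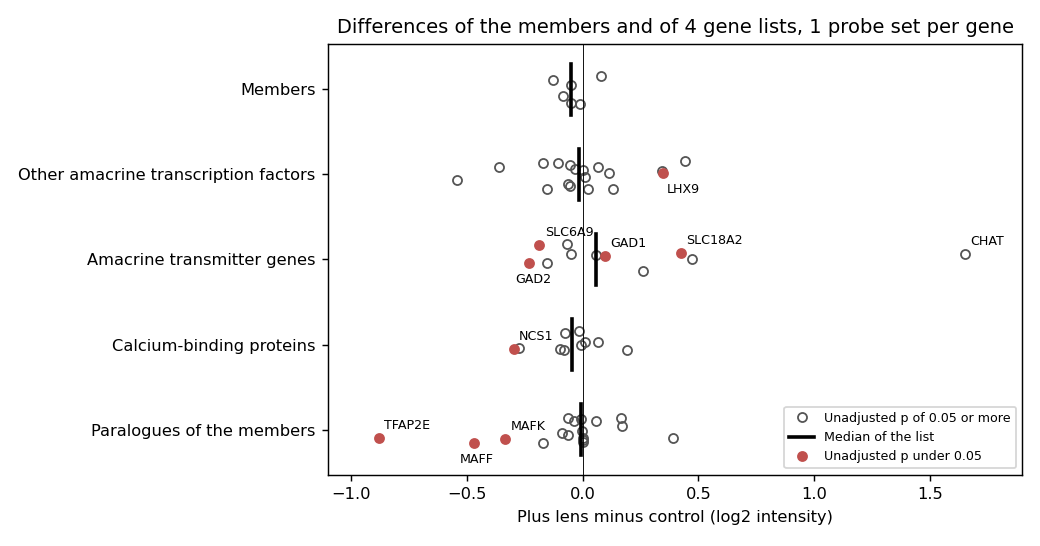
Difference between plus lens and control chicks in log2 intensity for the 6 member genes and for 4 gene lists, 1 probe set per gene, with filled points at an unadjusted p under 0.05 and a bar at each list's median. The 6 member genes lie between −0.13 and 0.077, the upper end being MAF, which lay under 16 in all arrays. The 4 lists of 10 to 18 genes have wider ranges, but a range grows with the number of genes, so the widths are not compared. CHAT, labelled for its size (1.65), had an SD of 1.39 among control chicks and an adjusted p of 0.979 from limma.

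Markers of other retinal cells gave the setting of these values. Of the measured markers, 2 of 3 for horizontal cells, 10 of 12 for ganglion cells, 6 of 6 for bipolar cells, 7 of 7 for Mueller glia and 6 of 7 for photoreceptors lay over 16 in every array, against 1 of 7 for the lens and 3 of 8 for the pigment epithelium. The pigment epithelium sum was uneven, from 529 to 853 in plus lens and from 647 to 1661 in control chicks. Its marker RPE65 averaged 8.88 in plus lens and 9.53 in control chicks, a difference of −0.65 that was −0.13 when W-adjusted. The summed intensity of the horizontal cell markers ran from 4599 to 5244 in plus lens and from 4734 to 5525 in control chicks, and that of the ganglion cell markers from 31060 to 39190 in plus lens and from 31570 to 37210 in control chicks. Groups overlapped in both sums. The measured horizontal cell markers were LHX1, which was dim, PROX1 and ISL1. PROX1 and ISL1 are also in the list of other amacrine transcription factors, and ISL1 is among the ganglion cell markers. These sums are therefore not readings of a single cell type. The photoreceptor sum ran from 41050 to 45520 in plus lens and from 49840 to 54710 in control chicks without overlap, and GNAT2, the cone transducin subunit, had there a difference of −1.31 (SE 0.185, adjusted p = 0.412 from limma) that was −1.38 when W-adjusted. The authors also listed GNAT2 as lower from the arrays. Their real-time RT–PCR, which included the chicks of the arrays, did not bear out this fall and gave GNAT2 a small rise that was not significant. By their account GNAT2 had more than 1 probe set, with only 1 changed, while the annotation used here gave it 1. Between group means the sum differed by −9601, of which GNAT2 alone held −6070 and the other 6 markers −3531. Without GNAT2, as computed after the values were seen, the sum ran from 37530 to 40110 in plus lens and from 37420 to 46150 in control chicks and the groups overlapped. Leaving out the gene with the largest difference narrows the gap by choice, so this is a description. The other 5 photoreceptor markers over 16 in every array had differences of −0.18 to −0.070, with unadjusted p-values of 0.213 to 0.65 from limma. W-adjusted, the differences were −0.013 for PDE6C, −0.023 for PDE6H, −0.026 for ARR3, −0.052 for GUCA1A and −0.22 for SAG. The part of these photoreceptor values in the results was not tested. No marker of these cells was called.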

How the data were processed

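Deposited values are linear intensities of probe sets, 1 for each array, to which the authors had applied GC-RMA in ArrayAssist after scanning. The deposited text records of the arrays served only for other facts, the fluidics station and the scan order. Log2 values of 38439 of the 38535 probe sets were used without further scaling or filter, the other 96 being Affymetrix controls. Groups were taken from the sample titles. The contrast of plus lens with control chicks came from limma 3.58.1 under R 4.3.3, by lmFit and eBayes on all probe sets and without a block, as in the unpaired tests of the methods, with Benjamini-Hochberg adjustment over all of them. Called means at least 1.5-fold with an adjusted p under 0.06, after the fold change and false discovery rate of the paper, which also named a p under 0.05. Intervals are at 95% from the same fit. Single probe sets also carry an exact permutation test over 70 relabelings (NumPy 2.4.6), whose smallest two-sided p is 0.0286. The number of arrays, 4 per group, limits the precision.

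Of several probe sets for 1 gene, the one with the highest mean stood for it. Named genes are all members, the 2 genes of each of 4 lists with the smallest p, and the 2 probe sets most like each bright member. MAFK, GAD2, CHAT, TH, CRYAA, CRYBA4, GNAT2 and RPE65 fall outside this rule and were named after their values were seen. The same holds for the transcription factors on chromosome Z and the other bright photoreceptor markers. The lists cover other amacrine transcription factors, amacrine transmitter genes, calcium-binding proteins and paralogues of the members, and 7 further lists cover markers of other cells. Members and lists were chosen with earlier results of these data known. The fit was tested on simulated data with known changes. Alternatives included limma with trend and robust eBayes, the methods' t-test, array weights, quantile normalization, median centring, a floor of 16, a filter at a mean log2 of 4, leaving out each array, a replicate block, a second term for absence of W-linked signal (W-adjusted), leaving out the arrays that lack it, and the mean of all probe sets of a gene. The W-adjusted fit and leaving out the arrays that lack the signal give the same differences. Sequences and positions within chromosomes were not used here.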

Additional observations from a re-analysis of the deposited data

Results flagged for a closer look

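PAX6 had a single chick far from the other 3 in each group. In plus lens chicks, replicate 4 lay at 12.82 with the nearest at 13.09, a gap of 0.937 of the range of the group. In control chicks, replicate 1 lay at 13.32 with the nearest at 13.03, a gap of 0.846 of the range. Both exceed Dixon's 95% value for 4 samples. In all, 16 groups of 4 values were looked at over the 8 member probe sets and 2 passed this value, where chance alone passes about 1 in 20. TFAP2A came next in plus lens chicks, with a gap of 0.826 of the range at the same replicate 4.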

How the results depend on the processing

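The count of called members stayed at 0, and so did the count of members at an unadjusted p under 0.05, under every alternative that was run. Over all 38439 probe sets the latter count ran from 1279 (values under 16 raised to 16) to 2260 (array weights). With the filter on low values it was 1329 of 17859. At shares this low, 0 among so few members says little about them. The lowest unadjusted p of a member was 0.0855, at the dimmer probe set of MAF with trend and robust eBayes. Over all probe sets limma called 0, and it called 1 with the filter on low values, 1 without plus lens replicate 4, 1 without control replicate 1 and 3 in the W-adjusted fit, none of them a member. Leaving out single arrays gave 0 to 1 member probe sets without overlap. The 1, without control replicate 4, was the dimmer probe set of MAF, which lay under 16 in all arrays. The share of all probe sets without overlap is not given for that setting. With array weights the difference was 0.042 for TFAP2A and 0.042 for the brighter probe set of CALB2, with quantile normalization it was 0.0017 for that CALB2 probe set, and with median centring −0.0070 for the dimmer one of MAF. Leaving out single arrays gave −0.086 to 0.031 for PAX6, −0.18 to 0.060 for TFAP2A, −0.10 to −0.0073 for TFAP2B, −0.083 to 0.038 and −0.083 to 0.071 for the brighter and dimmer probe sets of CALB2, −0.20 to 0.0052 for NEUROD6, and −0.046 to 0.23 and 0.0025 to 0.0063 for those of MAF. The causes of these turns of sign were not tested. The replicate block called 0 members, with unadjusted p-values of 0.348 to 0.883. Values of the same replicate number correlated between groups by −0.013 to 0.11 in their deviations, and 1 of 4 arrays correlated best with its own number, so the numbers were not taken to pair the chicks. In both groups the replicate number was also that of the fluidics module, so a replicate block cannot be told from a module block. With values under 16 raised to 16, MAF has no difference at either probe set, and the filter on low values removes both.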
